A study of Homo sapiens with 34 samples.

Results

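The regions described here were 1311 broad domains of trimethylation of lysine 27 on histone H3 (H3K27me3) that androgen-dependent and androgen-independent prostate cancer cells had in common. They were selected on the peak positions alone, by intersecting, base by base, the 4 deposited H3K27me3 peak lists, 2 from androgen-dependent (AD) and 2 from androgen-independent (AI) cells, and keeping the segments of 5000 bases or more on chromosomes 1 to 22. The domains were 1311 of 36317 shared segments (3.61%) and held 9.12 of 59.3 Mb of shared sequence (15.4%), so most of what the 4 lists shared was shorter. Because the lists themselves chose the domains, their number, length and presence in all 4 lists are a description without a test.

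AD cells were the LNCaP line, established from a human prostate cancer and grown in RPMI1640 medium, and AI cells were a derivative kept in medium with charcoal-stripped serum. RNA-seq had 12 libraries in 6 groups of 2: AD untreated, AI untreated, AD mock (a control siRNA), AI mock, AD siEZH2 (siRNA against EZH2) and AI siEZH2, the transfected cells having been collected at 24 h. ChIP-seq peak lists covered H3K27me3 (2 AD, 2 AI) and EZH2 (2 AD, 1 AI), and 8 RNA immunoprecipitation (RIP) libraries with EZH2 antibody or IgG were also among the 34 samples. The treatment protocol speaks of LNCaP/abl cells, but siRNA also appears in titles of AD libraries. Groups here rest on the titles, and what is said of transfected AD cells depends on them. Nothing in the labels makes replicates separate cultures, so the p-values speak only of the scatter among these libraries, which could be technical.

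H3K27me3 is placed by Polycomb repressive complex 2, of which EZH2 is the catalytic subunit, and marks genes that are kept silent. In most cell types it forms wide blankets over genes for developmental transcription factors and signalling molecules of other lineages, whose promoters are often rich in CpG dinucleotides. In prostate cancer EZH2 is known for being high in advanced disease and for silencing genes of differentiation.

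The promoters of 4 regulators whose starts lay in the domains are printed to show the kind of sequence the mark covered there. Each is the 250 bases upstream of the RefSeq start (GRCh38.p14), read 5′ to 3′ on the gene's strand, in lower case with every CG dinucleotide in capitals. All lay wholly inside their domain.
DBX1: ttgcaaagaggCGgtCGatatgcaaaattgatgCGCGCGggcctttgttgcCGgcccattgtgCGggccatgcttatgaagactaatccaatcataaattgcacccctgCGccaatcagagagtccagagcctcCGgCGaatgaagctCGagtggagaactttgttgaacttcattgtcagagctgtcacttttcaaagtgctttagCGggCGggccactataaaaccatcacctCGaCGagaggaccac
HMX2: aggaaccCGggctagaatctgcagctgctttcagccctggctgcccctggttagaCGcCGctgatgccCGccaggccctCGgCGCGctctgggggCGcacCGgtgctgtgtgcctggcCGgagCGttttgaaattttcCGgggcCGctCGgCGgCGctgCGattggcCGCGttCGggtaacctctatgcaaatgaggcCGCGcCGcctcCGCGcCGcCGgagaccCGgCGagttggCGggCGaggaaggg
TBXT: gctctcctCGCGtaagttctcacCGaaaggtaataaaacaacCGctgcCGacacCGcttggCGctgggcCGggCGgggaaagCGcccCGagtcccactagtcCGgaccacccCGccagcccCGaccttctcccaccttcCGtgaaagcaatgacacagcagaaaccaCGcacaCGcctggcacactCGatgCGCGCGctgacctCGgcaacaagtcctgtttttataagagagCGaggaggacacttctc
EVX2: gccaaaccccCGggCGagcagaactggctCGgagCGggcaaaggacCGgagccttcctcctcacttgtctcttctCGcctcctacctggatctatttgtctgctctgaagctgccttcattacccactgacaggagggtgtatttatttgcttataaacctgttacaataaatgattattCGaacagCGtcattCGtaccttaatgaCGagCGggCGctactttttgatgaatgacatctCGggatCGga
DBX1, a homeobox factor of neural tube progenitors, had 15 CG in chr11:20160476-20160725 (minus strand), inside the domain chr11:20154315-20167090. HMX2, a homeobox factor of the inner ear, had 31 in chr10:123147886-123148135 (plus strand). TBXT (brachyury), which specifies mesoderm and notochord, had 23 in chr6:166168656-166168905 (minus strand). EVX2, a homeobox gene beside the HOXD cluster, had 14 in chr2:176083963-176084212 (minus strand).

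A domain did not require such a promoter. FPR1, a receptor for formyl peptides on leukocytes, was chosen after its sequence had been seen as the contrast with no CG in chr19:51751879-51752128 (minus strand), inside the 9079-base domain chr19:51743076-51752154.
FPR1: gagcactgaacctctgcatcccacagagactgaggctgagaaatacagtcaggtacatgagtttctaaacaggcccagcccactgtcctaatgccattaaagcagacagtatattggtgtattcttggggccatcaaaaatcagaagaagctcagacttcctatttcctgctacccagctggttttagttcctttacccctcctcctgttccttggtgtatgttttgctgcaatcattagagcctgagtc
Over the whole RefSeq window of 250 bases before to 50 bases after the start, 73 protein-coding genes starting in a domain had a median GC of 60.3% and a median observed over expected CpG ratio of 0.667, against 62.7% and 0.765 for all 15101 protein-coding promoters of the table. Both a GC of 50% and a CpG ratio of 0.6 were reached by 54.8% of the domain promoters and by 63.7% of all. Of the 40 domain promoters that reached both, 7 belonged to listed transcription factors, all 7 with a sequence, against 76.7% of the 232 listed factors in the table. No genome was used, so composition was read from promoters and not from the domains themselves.

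A second kind of sequence in the domains was a microRNA cluster. The 7617-base domain chr14:101020739-101028355, in the imprinted 14q32 region, held 9 of the 10 microRNA genes found in domains: MIR379, MIR411, MIR299, MIR380, MIR1197, MIR323A, MIR758, MIR329-1 and MIR329-2. MicroRNAs bind targets mainly through the seed, bases 2 to 8, shown in capitals. The 17 mature names of the 10 genes had 16 seeds, and the pair printed here is the only one with a seed in common, AUGUAAC.
hsa-miR-379-3p: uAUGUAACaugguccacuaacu
hsa-miR-411-3p: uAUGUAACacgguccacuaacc
The RefSeq positions were chr14:101022109-101022130 and chr14:101023375-101023396, both on the plus strand. Only 2 of these genes were in the RNA-seq table: MIR411 was listed at 0 in 11 libraries and at 0.95 RPKM in AD siEZH2 replicate 1, and MIR299 at 0 in 11 libraries and at 0.75 RPKM in AD mock replicate 2. RPKM divides a gene's reads by its length and by the library's total, so such a value on a short precursor comes from few reads. RTL1, a retrotransposon-derived imprinted gene of the same region, started in a separate domain of 10338 bases and was between 0 and 0.04 RPKM.

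Before the results, 3 facts of the libraries bear on them. EZH2 RNA was 5.21 and 6.94 RPKM in AD untreated, 10.1 and 12.6 in AI untreated, 10.95 and 12.5 in AD mock, 7.07 and 5.44 in AI mock, 11.5 and 10.7 in AD siEZH2, and 3.60 and 4.33 in AI siEZH2. The siEZH2 libraries thus lay below mock in AI, without passing the test (log2 change -0.59 ± 0.18 SE, limma adjusted p = 0.126), and overlapped mock in AD (-0.07 ± 0.18 SE, adjusted p = 1). All 10 luminal prostate markers checked were at 8.67 RPKM or more in every library, and 15 markers of basal, blood and stromal cells were at 4.56 or less, with a sum of 2.59 to 10.2. Mitochondrially encoded genes took 18.4% to 33.4% of the summed RPKM in untreated and 2.10% to 4.07% in transfected libraries, and the estimated depth was 17.2 to 58.1 M reads in untreated and 7.42 to 12.7 M in transfected ones. The H3K27me3 lists of AI lay on both sides of the AD lists in their share of gene starts, replicate 1 below and replicate 2 above.

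The starts of 344 developmental transcription factors, taken from lists of HOX, other homeobox, PAX, SOX, FOX, GATA, TBX, bHLH and zinc finger genes, lay inside a peak of any length for 73 in AD replicate 1, 87 in AD replicate 2, 175 in AI replicate 2 and 32 in AI replicate 1. Over all 19126 protein-coding genes the numbers were 1150, 1420, 2204 and 874 in the same order. AI replicate 2 was above both AD lists in both sets. AI replicate 1 thus fell further below the other lists for the factors (9.30% against 21.2%, 25.3% and 50.9%) than for protein-coding genes at large (4.57% against 6.01%, 7.42% and 11.5%). The cause was not tested. Since a domain had to be in all 4 lists, the number of genes starting in domains, of listed genes among them, their RNA level and their called counts are also given without this list.

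**Figure D1:**
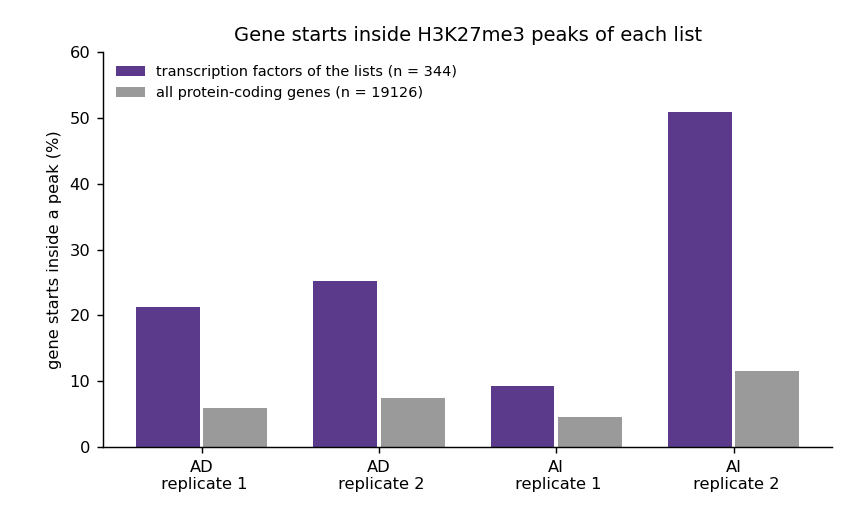
Share of gene starts (%, bars) that lay inside an H3K27me3 peak of each of the 4 lists, for 344 developmental transcription factors and for all 19126 protein-coding genes. The factors reached 9.30% in AI replicate 1 and 50.9% in AI replicate 2, with both AD lists between.

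The domains were modest in length. Their median was 6312 bases, 107 reached 10000 bases and the longest measured 18545. Just at the threshold, 69 segments exceeded 5000 bases by at most 100 and 73 fell short of it by at most 100, the closest being 5001 and 4999 bases, so the threshold cut through a continuum. The shared part was shorter than the peaks around it: the peaks holding a domain had median lengths of 8006 and 7752 bases in AD and 11005 and 9007 bases in AI. AD replicates 1 and 2 set 34.0% and 34.6% of the domain edges, AI replicate 2 set 26.5% and AI replicate 1 only 5.11%. Of 2877 segments of 5000 bases or more shared by both AD lists, 1306 (45.4%) held a domain, and of 7056 shared by both AI lists, 1266 did (17.9%).

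The 10 longest domains lay mostly inside or between genes and not at protein-coding starts. The longest, chr19:56024393-56042937, crossed NLRP5, an oocyte gene. The second (18513 bases, chr20:61727177-61745689) and the fifth (16982 bases, chr20:61654256-61671237) lay in CDH4, which encodes R-cadherin of the nervous system. The third (17435 bases) lay in PHACTR3 and held the start of its antisense RNA PHACTR3-AS1, the fourth (16997 bases) lay in DPP6, a potassium channel auxiliary subunit of neurons, and the eighth (15982 bases) lay in ADAMTS16, a secreted protease. The sixth and seventh, chr1:37385714-37402163 and chr22:49391215-49407633, overlapped no RefSeq gene. Those ranked 9 and 10 held only starts of noncoding genes, LOC124903087 and LOC105372562.

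**Figure D2:**
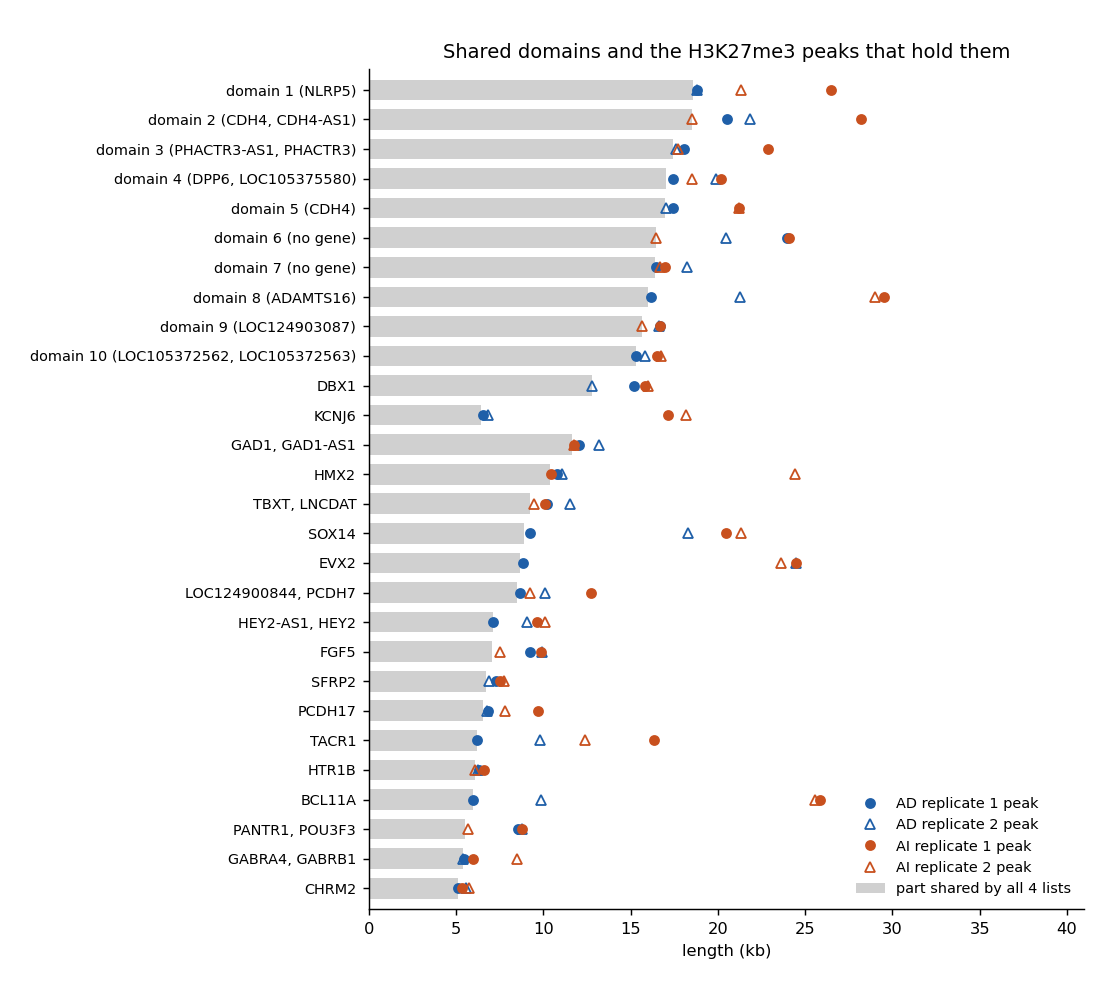
Length (kb) of the part shared by all 4 lists (grey bars) and of the H3K27me3 peak that holds it in each list (points), for the 10 longest domains and for those with the start of a listed gene. In EVX2, for example, the shared part of 8648 bases was bounded by the AD replicate 1 peak of 8839 bases, while the other 3 peaks measured 23627 to 24481 bases.

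Domains were not spread evenly over chromosomes. Their density was 1.66 per Mb on chromosome 20 and 1.43 on chromosome 19, and 0.0703, 0.0787 and 0.0826 on chromosomes 6, 13 and 2. They were also clustered, since 465 of 1289 gaps between neighbours on a chromosome were under 50000 bases. CDH4 alone was crossed by 12 domains that covered 105678 bases, or 15.4% of the gene. GFRA1, a receptor for glial-derived neurotrophic factor, was crossed by 9 (74223 bases), PTPRN2, a phosphatase-like protein of secretory granules, by 10 (61453 bases), and the neuronal genes TMEM132B, KIRREL3, DPP6, DSCAML1, TENM2 and RIMBP2 by 6 to 9 each. Ranking by bases covered favours long genes. Crossed protein-coding genes had a median span of 134 kb, against 24.5 kb for all protein-coding genes. Of all 1311 domains, 60.3% overlapped a RefSeq gene and 45.2% a protein-coding gene. By bases, 40.8% of the domains lay in protein-coding genes, against 42.1% of the chromosomes, so the domains covered genes about as often as the genome at large does.

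Gene starts were denser. Domains held 14.6 starts per Mb of genes with a known strand, against 9.99 in shorter shared segments and 9.13 over the chromosomes, and for protein-coding genes the values were 8.01, 5.12 and 5.25. Even so, 154 domains (11.7%) held any gene start and 76 (5.80%) a protein-coding one. In all 183 genes started in a domain: 79 protein-coding genes, 69 long noncoding RNAs, 20 pseudogenes, 3 transcribed pseudogenes, 10 microRNAs and 2 small nucleolar RNAs. The annotation used gave no strand for 30510 of 56756 genes, and such a gene was counted only when both its ends lay in domains, so 66 genes with 1 end in a domain were left out. Without the AI replicate 1 list, 313 genes started in a domain, 161 of them protein-coding. By any overlap of the gene body, a definition added after the data had been seen, domains crossed 629 genes, 364 of them protein-coding.

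Over all protein-coding genes 0.413% started in a domain. Among developmental transcription factors, 8 of 344 did: DBX1, HMX2, TBXT, SOX14, EVX2, HEY2, BCL11A and POU3F3. They were 1 of 47 HOX-list genes (EVX2), 3 of 113 other homeobox genes, 1 of 13 SOX genes, 1 of 14 TBX genes, 1 of 51 bHLH genes and 1 of 70 zinc finger and other factors, and none of 9 PAX, 23 FOX and 5 GATA genes. SOX14, a repressor of the SOX family, lay in an 8874-base domain (chr3:137757245-137766118). HEY2, a bHLH repressor downstream of Notch, had a domain of 7098 bases. BCL11A, the zinc finger repressor of fetal globin, had 5939 bases, and POU3F3, a neural POU factor, had 5485. Without the AI replicate 1 list 32 of the 344 started in a domain, among them HOXB8, HOXD3, HOXD4, HOXD11, PAX6, PAX7, MYOD1, OLIG3 and FOXQ1. Leaving out AD replicate 1 gave 17, AD replicate 2 gave 8 and AI replicate 2 gave 9. The number of factors in the domains thus moved most with the AI replicate 1 list.

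Factors also lay beside the domains. In a domain or within 50000 bases of one were 42 of the 344 factors (12.2%), against 4.48% of all protein-coding genes. Of the 42, 18 were crossed by a domain, among them the 8 that started in one, and the others lay beside it. HOXD13, the last gene of the HOXD cluster, was 664 bases from the EVX2 domain, and HOXD12, HOXD11, HOXD10, HOXD9 and HOXD8 followed at 12972 to 42882 bases. EN2 was 1382 bases and HMX3 1640 bases from a domain, and FOXA2, a forkhead factor of endoderm, 24187 bases. GATA4, ISL1, EBF1, RUNX1, PRDM16 and PROX1 had a domain in the gene body but not at the start.

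Of 123 genes for neuronal receptors, channels and transmitter enzymes, 16 were crossed by 1 or more domains. Over all protein-coding genes 1.90% were crossed, and the part of gene length in this was not tested. Of the 123, 7 started in a domain. They were GAD1, which makes the transmitter GABA, in a domain of 11627 bases, the potassium channel gene KCNJ6 (6435 bases), the substance P receptor TACR1 (6188), the serotonin receptor HTR1B (6088), GABRA4 and GABRB1, 2 subunits of the GABA-A receptor that share a domain of 5367 bases between their starts, and the muscarinic receptor CHRM2 (5100). Among secreted ligands and antagonists 2 of 88 started in a domain: FGF5, a fibroblast growth factor, in 7045 bases, and the Wnt antagonist SFRP2 in 6697. Among protocadherins and cadherins 2 of 78 did, PCDH7 in 8492 and PCDH17 in 6514 bases. Without the AI replicate 1 list the neuronal, ligand and cadherin lists had 9, 12 and 3 starts. Beside a share of 0.413% a 0 in a short list says little. No gene of the lists of PRC2 subunits (11), luminal and androgen genes (16), reported EZH2-silenced tumour suppressors (21), basal (7), neuroendocrine (12) and blood or stromal markers (15) started in a domain, although SFRP1 and NCAM1 were crossed. Factors outside the lists, named after the table had been read, included MYCN, FOXP2, RORB, CUX2, SKOR1 and GSC2.

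EZH2 peaks were not used to choose the domains and were denser in them in all 3 lists. Peaks per Mb of domains, of shorter shared segments and of the rest of the chromosomes were 86.1, 41.3 and 18.0 in AD replicate 1, 18.3, 9.61 and 4.15 in AD replicate 2, and 13.9, 10.2 and 3.98 in AI. A peak of AD replicate 1 overlapped 563 domains (42.9%, Wilson 95% interval 40.3% to 45.6%), a peak of AD replicate 2 overlapped 148 (11.3%, 9.69% to 13.1%) and a peak of AI 123 (9.38%, 7.92% to 11.1%). The AD replicates themselves thus differed more than AD replicate 2 and AI, with 53638, 12317 and 11852 peaks in the 3 lists, and with 1 AI list AD and AI cannot be compared. The interval covers counting error only, and domains near each other are not independent.

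**Figure D3:**
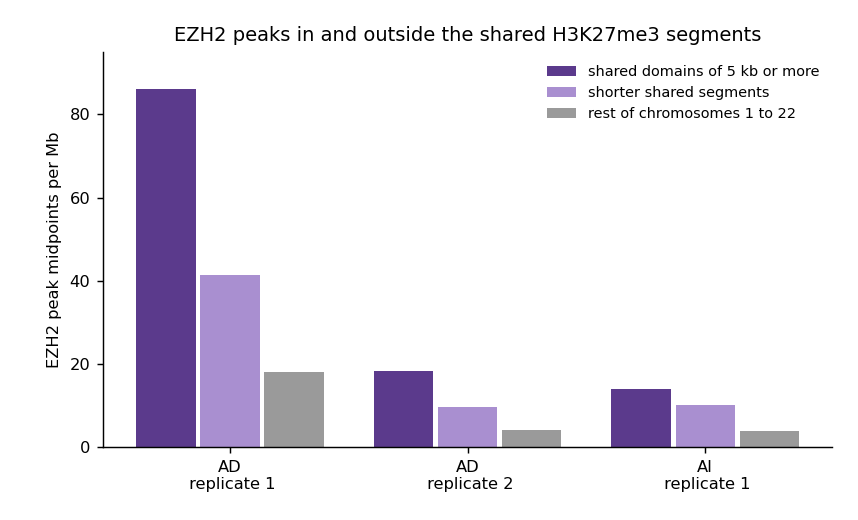
EZH2 peak midpoints per Mb (bars) in the shared domains, in shared segments under 5 kb and in the rest of chromosomes 1 to 22, for the 3 EZH2 lists. In each list the domains have the highest density, from 13.9 in AI to 86.1 in AD replicate 1.

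Of the 1311 domains, 638 (48.7%) had no EZH2 peak in any list and 12 had one in all 3. The 12 included the TBXT domain, the KISS1R domain (chr19:916508-921766, kisspeptin receptor), the PGLYRP4 domain (chr1:153344067-153352128, a peptidoglycan recognition protein), the longest CDH4 domain, and domains in TSPAN18, GAS7 and CPXM2. Domains with a gene start held a peak of any list in 66.9% of cases and domains without one in 49.3%, and in the same order the shares were 58.4% and 40.9% in AD replicate 1, 17.5% and 10.5% in AD replicate 2, and 12.99% and 8.90% in AI. The domains with a peak in all 3 lists were also longer, with a median of 8784.5 bases against 6032 for those with none.

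RNA from the genes starting in domains was low in every group. Of the 183 genes, 73 were in the RNA-seq table, and between 0 and 9 of them (0% to 12.3%) reached 0.5 RPKM in a library, against 39.6% to 46.0% of all 28071 genes and 51.5% to 57.9% of the 18934 genes starting in none of the 4 lists. Between 47.9% and 71.2% of them were listed at 0. Their highest value in any library was 4.03 RPKM. Over the 12 libraries the mean share was 5.37% ± 4.02 (SD), and without the AI replicate 1 list it was 6.63%. In bulk samples fewer cells with a transcript and less of it per cell cannot be told apart.

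The share also followed the groups. It was 4.11% in both AD untreated libraries and 0% in both AI untreated libraries, 9.59% in both AD mock libraries against 2.74% and 4.11% in AI mock, and 9.59% and 12.3% in AD siEZH2 against 2.74% and 5.48% in AI siEZH2. AD was above AI in all 3 states without overlap. Genes crossed by a domain reached 15.8% and 16.6% in AD mock and 14.7% and 15.5% in AD siEZH2 but 7.08% to 8.17% in the other 4 groups. Over all genes of the table the share was also highest in AD mock and AD siEZH2 (45.4% to 46.0%) and lowest in AI mock and AI siEZH2 (39.6% to 40.5%), so the direction between transfected AD and AI was that of the table as a whole. In untreated cells the share over all genes overlapped, with 43.8% and 43.1% in AD and 44.2% and 42.8% in AI. The untreated shares of genes starting in a domain rest on 3 genes in each AD library and 0 in each AI library. With 2 libraries a group no exact test of a single share can reach 0.05, and none was made.

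**Figure D4:**
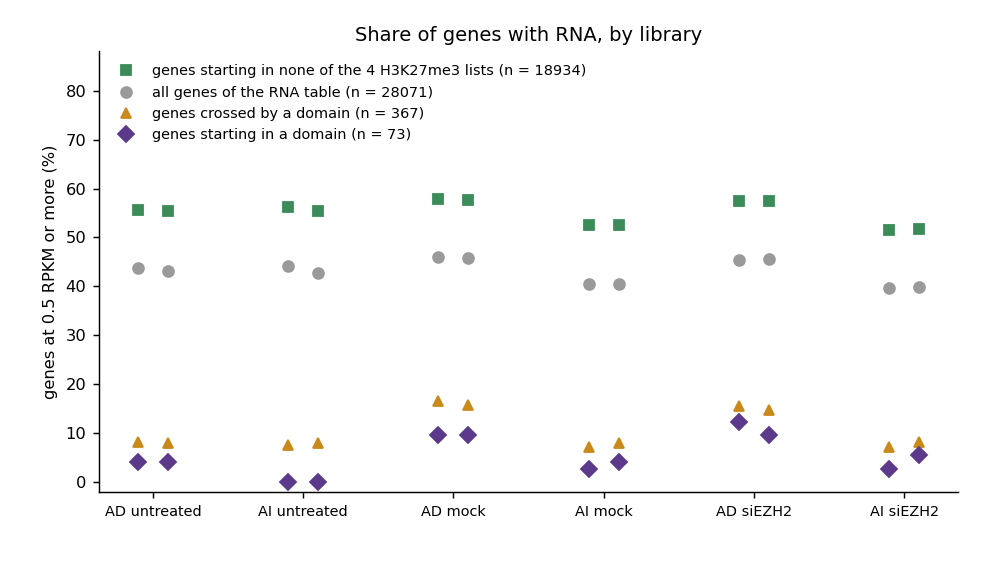
Share of genes (%) at 0.5 RPKM or more in each RNA-seq library (points, 2 per group) for genes starting in a domain, genes crossed by one, all genes and genes starting in none of the 4 lists. Genes starting in a domain lie between 0% and 12.3% in every library, below the other sets.

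The regulators named above were low in RNA, as were most genes starting in a domain. DBX1 was listed at 0 in 11 libraries and at 0.15 RPKM in AD mock replicate 1. HMX2 was at 0 in 11 and at 0.06 in AD siEZH2 replicate 1, and EVX2 at 0 in 11 and at 0.02 in AD mock replicate 2. TBXT reached 0.11 RPKM in AI siEZH2 replicate 2, SOX14 0.06 in the same library, HEY2 0.06 in AI untreated replicate 1 and BCL11A 0.07 in AD untreated replicate 1 and AD siEZH2 replicate 2. None of them approached 0.5 RPKM, and at these values a library holds a handful of reads. FGF5 stayed at or below 0.02, KCNJ6 at or below 0.02, GABRA4 at or below 0.03, PCDH7 at or below 0.11 and SFRP2 at or below 0.21 RPKM, while HTR1B, POU3F3, GABRB1 and CHRM2 were not in the table.

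RNA recovered with the EZH2 antibody was low for these genes too. Of the 45 genes starting in a domain that were in the RIP table, 0% and 6.67% reached 0.5 RPKM in the AD and 0% and 2.22% in the AI EZH2 immunoprecipitates, against 44.2% to 51.6% of all 25035 genes. In the IgG controls the share was 6.67% and 8.89% in AD and 2.22% and 4.44% in AI, against 27.8% to 51.5% of all genes. Within each cell state fewer of the 45 were listed at 0 with the EZH2 antibody than with IgG (40.0% and 33.3% against 88.9% and 51.1% in AD, 53.3% and 44.4% against 88.9% and 95.6% in AI). Over all genes the share at 0 was likewise lower with the antibody (20.8% to 27.9% against 35.4% to 72.2%), and neither difference was tested.

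Only 9 of the 73 genes passed the filter of 0.5 RPKM in at least 2 libraries and were tested: KCNN1, KISS1R, GAD1, IGSF21, MAGI2, MYO1F, IL11, SYDE1 and TACR1. A gene that passed because of 1 group had to differ between groups, so the counts below describe these 9 and say nothing of the other 64. Of the 9, 4 passed only with the help of transfected AD libraries, having fewer than 2 others at 0.5 RPKM. KCNN1, IL11, MAGI2, SYDE1 and TACR1 stayed below 0.5 RPKM in every AI library and passed through AD libraries alone. IGSF21 had 1 AD library at 0.5 RPKM or more and passed with the help of AI libraries. The filter thus favoured lower AI values in the former and higher ones in IGSF21. Changes are log2(RPKM + 0.5), AI minus AD or siEZH2 minus mock, from a limma fit over all 12 libraries and 14227 genes with Benjamini-Hochberg adjustment, and are given with their SE.

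In untreated cells, 4 of the 9 fell and 1 rose in AI, where 34.6% of all genes tested changed (22.2% higher and 12.4% lower). KISS1R, the kisspeptin receptor, was 1.38 and 0.76 RPKM in AD and 0.03 and 0 in AI (-1.58 ± 0.42, adjusted p = 0.0167). IL11, a cytokine of the interleukin 6 family, was 0.77 and 0.87 against 0.18 and 0.26 (-0.88 ± 0.24, adjusted p = 0.0189). KCNN1, a calcium-activated potassium channel, was 0.46 and 0.49 against 0.06 and 0.08 (-0.77 ± 0.20, adjusted p = 0.0147). MAGI2, a scaffold protein of cell junctions, was 0.62 and 0.65 against 0.21 and 0.29 (-0.60 ± 0.17, adjusted p = 0.0237). IGSF21, a synaptic adhesion molecule, went the other way, with 0 and 0.05 in AD and 0.39 and 0.30 in AI (0.69 ± 0.23, adjusted p = 0.0427). In these 5 genes the AD and AI libraries did not overlap, and how often that holds over all genes is not given here. These calls were fragile: without AD untreated replicate 1 none of the 9 was called, without any other untreated library 1 was, and quantile normalization left 2, KISS1R and IL11, with 2336 genes higher and 2291 lower over the whole table. With domains drawn without the AI replicate 1 list, 3 rose and 7 fell, from 313 genes starting in them. How many of the 313 were tested is not given here, so counts from this setting, here and below, are not shares.

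After mock transfection 5 of the 9 fell in AI and none rose, where 55.7% of all genes tested changed (12.2% higher and 43.5% lower) and the median gene fell by 0.41. KCNN1 was 3.19 and 2.63 RPKM in AD mock and 0.12 and 0.19 in AI mock (-2.38 ± 0.20, adjusted p = 1.01e-05), the largest change of the 9. MAGI2 was 0.94 and 0.73 against 0.05 and 0.04 (-1.29 ± 0.17, adjusted p = 0.000177). SYDE1 was 0.61 and 0.82 against 0.14 and 0.02 (-1.07 ± 0.19, adjusted p = 0.00100). TACR1 was 0.57 and 0.40 against 0.02 and 0.02 (-0.92 ± 0.19, adjusted p = 0.00226), and IL11 was 0.31 and 0.56 against 0 and 0.07 (-0.80 ± 0.24, adjusted p = 0.0173). The AD and AI libraries did not overlap in these 5, and how often that holds over all genes is not given here. Of the 5, 3 (KCNN1, SYDE1 and TACR1) passed the filter only with the help of transfected AD libraries. IL11 and MAGI2 were also below 0.5 RPKM in every AI library, so the filter favoured the falls of all 5 in transfected AI cells. KISS1R did not pass in mock (-0.66 ± 0.42, adjusted p = 0.208), its values being 1.29 and 1.49 in AD and 0.48 and 0.96 in AI. Scaling mattered: with quantile normalization, which moved the median of all genes to 0.02 and their calls to 3440 higher and 3522 lower, 3 of the 9 rose (GAD1 by 0.88, IGSF21 by 0.82 and MYO1F by 0.72) and 2 fell, and IL11, SYDE1 and TACR1 were no longer called. IL11 in mock was also lost without AD mock replicate 2 (adjusted p = 0.114) or AI mock replicate 1 (0.0922). With domains drawn without the AI replicate 1 list, none rose and 12 fell, from 313 genes starting in them.

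After siEZH2 5 of the 9 fell and 1 rose in AI, where 57.7% of all genes tested changed (10.6% higher and 47.1% lower) and the median gene fell by 0.48. KCNN1 was 4.03 and 3.20 RPKM in AD and 0.18 and 0 in AI (-2.81 ± 0.20, adjusted p = 3.92e-06). TACR1 was 0.71 and 0.66 in AD and listed at 0 in both AI libraries (-1.24 ± 0.19, adjusted p = 0.000352). SYDE1 (0.88 and 0.91 against 0.13 and 0.10), IL11 (1.02 and 0.49 against 0.05 and 0.06) and MAGI2 (0.67 and 0.81 against 0.08 and 0.06) fell by 1.18, 1.14 and 1.12 in the same fit, with adjusted p of 0.000527, 0.00253 and 0.000416. IGSF21 was 0.38 and 0.17 in AD and 1.39 and 0.89 in AI (1.08 ± 0.23, adjusted p = 0.00281). With quantile normalization (3225 genes higher and 3358 lower over the table) 2 rose, IGSF21 and GAD1, and 3 fell, and the calls of IL11 and MAGI2 were lost. With domains drawn without the AI replicate 1 list, 1 rose and 12 fell, from 313 genes starting in them. GAD1 and MYO1F, a myosin of leukocytes, were called in none of the 3 comparisons on the RPKM as deposited. GAD1 was 0.01 to 0.17 RPKM in the 4 untreated libraries and 0.61 to 1.05 in the 8 transfected ones. The states did not overlap in AD or in AI, but how many other genes separate in this way is not given here. Untreated and transfected libraries also differed in depth and mitochondrial share, and transfected against untreated cells was not a tested comparison. KCNN1, IL11 and MAGI2 were lower in AI in all 3 comparisons, and none of the 9 was higher in all 3. Those lower in all 3 had passed the filter through AD libraries alone, which favoured this direction. With quantile normalization none of these 3 genes was called in all 3 comparisons.

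**Figure D5:**
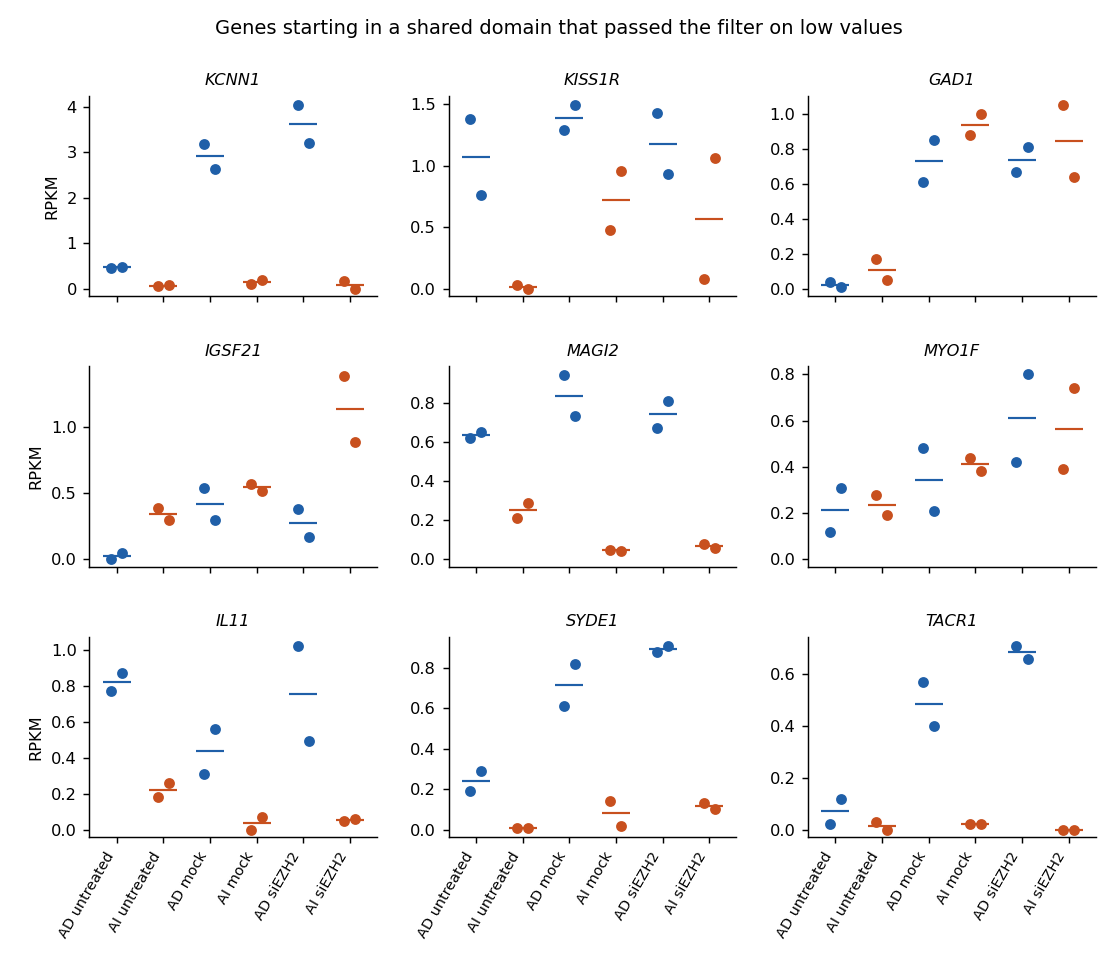
RPKM (linear axes, each panel with its own range) in each of the 12 RNA-seq libraries (points; blue AD, orange AI) with the group mean (line) for the 9 genes starting in a domain that passed the filter. KCNN1 reaches 2.63 to 4.03 in the transfected AD libraries and stays at or below 0.19 in every AI library.

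None of the 9 genes passed the test of siEZH2 against mock in either cell state. In AD, limma called 0 of the 9 and 2 of all genes (0.0141%), and at an unadjusted p under 0.05 the numbers were 0 and 544. In AI it called 0 of the 9 and 208 of all genes (1.46%, 10 higher and 198 lower, which quantile normalization reduced to 4 and 7), and at an unadjusted p under 0.05 the numbers were 1 and 2675. The 1 gene was IGSF21, with 0.57 and 0.52 RPKM in AI mock and 1.39 and 0.89 in AI siEZH2 (0.63 ± 0.23, adjusted p = 0.177). The difference between the siEZH2 effects of AI and AD was called for 0 of the 9 and 0 of all 14227 genes (0%), with 1 and 976 at an unadjusted p under 0.05. Of the 73 genes, 7 and 7 reached 0.5 RPKM in the 2 AD mock libraries and 9 and 7 in the 2 AD siEZH2 libraries, and 2 and 3 against 2 and 4 in AI, so the number with RNA differed by at most 2 between libraries of the same cells. EZH2 RNA itself did not pass the test after siEZH2, and no H3K27me3 list was made from transfected cells among the files analysed, so whether the domains persisted is not known from these data.

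The AI minus AD difference itself changed between mock and untreated cells in 3 of the 9, all toward lower AI values, where 50.2% of all genes tested did (8.99% higher and 41.2% lower, or 2620 and 2902 genes with quantile normalization). KCNN1 had a difference of -0.77 in untreated and -2.38 in mock cells (interaction -1.60 ± 0.28, adjusted p = 0.00124). TACR1 (-0.14 and -0.92) and MAGI2 (-0.60 and -1.29) had interactions of -0.77 and -0.69, with adjusted p of 0.0340 and 0.0396, and quantile normalization took both calls away (limma adjusted p = 0.682 and 0.629). A single call was also all that remained without AD untreated replicate 1, AI untreated replicate 1 or 2, AD mock replicate 1, or AI mock replicate 1 or 2. With domains drawn without the AI replicate 1 list 1 gene differed upward and 7 downward, from 313 genes starting in them. Untreated and transfected libraries also differed in depth and mitochondrial share, as given above, and the part of depth in the interaction was not tested. After rescaling without mitochondrially encoded genes the interactions were -1.56 in KCNN1, -0.75 in TACR1 and -0.66 in MAGI2, of which MAGI2 was no longer called (limma adjusted p = 0.0561).

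Genes with a domain somewhere in their body, but mostly not at the start, carried more RNA. Of the 629, 367 identifiers were in the table and 64 of them, for 63 genes, were tested. The highest were RNF220, a ubiquitin ligase with a mean of 26.5 RPKM over the 12 libraries, SEL1L3 with 24.0 and DLGAP4, a postsynaptic scaffold, with 17.0. Of the 64, 25 passed the filter only with the help of transfected AD libraries (39.1%, against 6.19% of all genes tested), so the filter favoured falls in transfected AI cells and the counts describe the 64 alone. In untreated cells 13 rose and 7 fell in AI (31.3% of the 64, against 34.6% of all genes). In mock cells 3 rose and 37 fell (62.5%, against 55.7%), and after siEZH2 5 rose and 34 fell (60.9%, against 57.7%). The 37 falls in mock were 57.8% of the 64, against 43.5% of all genes, and 18 of the 37 were among those 25. Median changes were -0.82 against -0.41 in mock and -0.78 against -0.48 after siEZH2. With quantile normalization 14 rose and 22 fell in mock and 15 rose and 21 fell after siEZH2. Over all genes that scaling gave 3440 higher and 3522 lower in mock, and 3225 and 3358 after siEZH2. The number of falls thus depended on the scaling, but falls still outnumbered rises among the 64. For siEZH2 against mock limma called 0 of the 64 in AD and 0 in AI, with 1 and 5 at an unadjusted p under 0.05.

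Some of these genes changed in opposite directions in untreated and mock cells. OLFM1, a secreted olfactomedin of the nervous system, was 0.08 and 0.11 RPKM in AD untreated and 3.47 and 3.72 in AI untreated (2.78 ± 0.19, adjusted p = 9.59e-06), but 1.48 and 1.58 in AD mock and 0.30 and 0.15 in AI mock (-1.49 ± 0.19, adjusted p = 0.000122). SHC2, an adaptor of receptor tyrosine kinases, was 1.63 and 1.55 against 8.67 and 8.07 untreated and 8.25 and 5.94 against 1.12 and 1.16 in mock (2.08 and -2.19, both ± 0.28). In both genes the AI untreated level lay near the AD mock level or above it. TSHZ3, a zinc finger factor, did likewise (1.34 and -1.34, both ± 0.23), and TLN2, which encodes talin 2, changed by 1.30 and -0.67, the second lost with quantile normalization (-0.04, adjusted p = 0.864). Of the 15 crossed identifiers called in both comparisons, 9 rose in untreated and fell in mock AI cells and 6 kept their direction, and with quantile normalization it was 5 of 8. Over all genes 3148 were called in both and 1580 of them went opposite ways.

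A few crossed genes did not turn. ALDH5A1, which breaks down GABA, rose in AI in all 3 comparisons (2.44, 1.34 and 1.25, each ± 0.18), from 0 and 0.03 RPKM in AD untreated to 2.20 and 2.40 in AI untreated. MSRA, a repair enzyme of oxidised methionine, rose by 1.19, 0.43 and 0.78, the second lost when any of the 4 mock libraries was left out (adjusted p from 0.0755 to 0.133). COL5A1, a collagen chain crossed by 3 domains over 23294 bases, changed by -0.78, -2.42 and -2.31 and was 2.87 and 2.76 RPKM in AD mock against 0.17 and 0.07 in AI mock. Its untreated call was lost without AD untreated replicate 2 (adjusted p = 0.0592) or AI untreated replicate 1 (0.0854). PDE6B, a subunit of the photoreceptor phosphodiesterase, was 0.52 and 0.57 RPKM in AD untreated and 0.03 and 0 in AI untreated (-1.02 ± 0.30, adjusted p = 0.0275). That call was lost without any 1 of the 4 untreated libraries (adjusted p from 0.0701 to 0.0997).

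Some crossed genes had their highest RNA levels in transfected AD cells. CERK, which phosphorylates ceramide, was 3.92 and 4.53 RPKM in AD mock and 3.98 and 4.48 in AD siEZH2, and at or below 0.23 in the 8 libraries of the other 4 groups. C3, the central complement component, was 2.04 and 2.20 in AD mock and 2.32 and 1.96 in AD siEZH2, and at or below 0.10 elsewhere. Both passed the filter through transfected AD libraries alone and were named for their falls in transfected AI cells. Their selection thus favoured this pattern. RPS6KC1, a kinase-like protein, was 5.33 and 6.56 in AD mock against 1.02 and 1.11 in AI mock (-2.04 ± 0.19, adjusted p = 1.79e-05), and 2.62 to 3.88 in all 4 untreated libraries. DLGAP4 rose in AI mock (0.70 ± 0.22, adjusted p = 0.0224) and AI siEZH2 (0.81 ± 0.22, adjusted p = 0.0111), and MACROD2, which removes ADP-ribose from proteins, in AI siEZH2 (0.69 ± 0.23, adjusted p = 0.0279), with 0.50 in mock (adjusted p = 0.0914). Rescaling without mitochondrially encoded genes took the DLGAP4 calls away (0.54 and 0.65, adjusted p = 0.116 and 0.0632). Leaving out any 1 of the 4 mock libraries ended the call of DLGAP4 in mock (adjusted p from 0.0677 to 0.0941), that after siEZH2 ended without AD siEZH2 replicate 2 or AI siEZH2 replicate 1 (0.0544 and 0.0610), and that of MACROD2 without AD siEZH2 replicate 1 or 2 or AI siEZH2 replicate 1 (0.117, 0.0579 and 0.222).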

How the data were processed

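Gene RNA levels were deposited by the authors as RPKM. H3K27me3 and EZH2 peak lists were deposited with a score per peak, and the peak names have the form MACS gives. Reads were handled with cutadapt, TopHat2, Bowtie2 and edgeR on GRCh38, per the submitters' processing notes, with versions and settings not given in the sources used here. Low RPKM values differ in precision, since estimated depth ranged from 7.42 to 58.1 M reads.

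Peaks of each list were merged, the 4 H3K27me3 lists intersected by base, and segments of 5000 bases or more on chromosomes 1 to 22 kept. Genes, strands and sequences came from RefSeq GRCh38.p14. Strand was known from the promoter table; 30510 genes without one, 4025 of them protein-coding, counted as starting in a domain only when both ends lay in domains (50 counted, 66 with 1 end not), so start counts are too low. RNA was tested as log2(RPKM + 0.5) with limma 3.58.1 (R 4.3.3), with trend, over 12 libraries and the 14227 genes at 0.5 RPKM or more in at least 2, with Benjamini-Hochberg adjustment at 0.05 and no replicate block; the code was tested on simulated data. Python 3.11.15 did the rest.

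Named were the 10 longest domains, up to 4 genes per list, the 5 largest called rises and falls per comparison, the 8 genes of highest mean, genes called alike in all 3 AI minus AD comparisons and 4 promoters of leading regulators. The members, the lists and the tests were chosen with earlier results of these data known. The overlap with gene bodies, the FPR1 promoter and other names outside the rule were added after values were seen.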

Additional observations from a re-analysis of the deposited data

Results flagged for a closer look

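In 13 named genes the AI minus AD change differed between mock and untreated cells by the limma interaction test. Among genes starting in a domain the differences were -1.60 in KCNN1, -0.77 in TACR1 and -0.69 in MAGI2. Among genes crossed by one they were -4.28 in SHC2, -4.28 in OLFM1, -3.42 in CERK, -2.68 in TSHZ3, -2.24 in C3, -2.07 in RPS6KC1, -1.97 in TLN2, -1.64 in COL5A1, -1.11 in ALDH5A1 and -0.75 in MSRA. The calls of TACR1, MAGI2, ALDH5A1 and MSRA were lost with quantile normalization, where the values were -0.16, -0.18, -0.39 and -0.05. In all, 34 of the 64 tested identifiers crossed by a domain differed (53.1%), against 50.2% of all genes tested.

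Outside chromosomes 1 to 22, the 4 H3K27me3 lists shared 5 segments of 5000 bases or more on chromosome X, the longest of 6623 bases, and 2 on sequences not placed on a chromosome, the longest of 20178 bases.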

How the results depend on the processing

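The number of domains, 1311, became 4359 at a minimum of 3000 bases, 107 at 10000 and 3039 with peaks joined over gaps of up to 1000, and 1665 to 2255 without 1 list. The 183 genes starting in them became 432, 22 and 383 at those settings, 629 by any overlap of the gene body, and 246 to 361 without 1 list (313 without AI replicate 1). Their mean share at 0.5 RPKM, 5.37%, was 9.52% at 10000 bases, 10.4% by any overlap, 15.6% at 0.1 RPKM and 5.67% to 8.28% without 1 list. Domains with an EZH2 peak of AD replicate 1 were 29.0%, 64.5% and 34.8% at 3000 bases, at 10000 and with joined peaks, and 36.0% to 46.4% without 1 list; at 3000 and 10000 bases they were 6.95% and 21.5% in AD replicate 2 and 6.52% and 19.6% in AI.

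Called genes starting in a domain numbered 5 in untreated AI against AD: 2 with a filter of 1 RPKM, 2 with quantile normalization, 3 with only the groups compared, 12 at 3000 bases, 0 at 10000, 1 with 50% of the gene body in domains, 20 by any overlap, and 0 to 10 without 1 library or list. In mock the 5 became 10 without a filter, 1 at 1 RPKM, 10 at 3000 bases, 0 at 10000, 0 with 50% of the body, 40 by any overlap, and 4 to 13 without 1. After siEZH2 the 6 became 12, 1, 11, 0, 0 and 39 in the same order, and 6 to 13. Between siEZH2 and mock in AD, and for the difference of the siEZH2 effects, the 0 became 1 without a filter. The AI minus AD difference changed between mock and untreated cells in 3. These became 7 without a filter, and 1 at 1 RPKM, with quantile normalization or with only the groups compared. They became 10 at 3000 bases, 0 at 10000, 5 with joined peaks, 0 with 50% of the body, 34 by any overlap, and 1 to 9 without 1. The number tested differed with the definition of the genes (9 by start and 64 by any overlap), so these counts are not shares. Causes were not tested.

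Replicates of the same number deviated together in untreated cells (correlation 0.70) and hardly in the others (0.0094 to 0.062). Estimated depth in untreated AD and AI was 17.2 and 18.3 M reads in replicate 1 and 58.1 and 51.0 M in replicate 2. The mitochondrial share was 18.4% and 19.6% in replicate 1 and 32.6% and 33.4% in replicate 2. Numbers were not taken as pairs in any group, so this shared deviation stayed in the untreated comparison. A replicate block, a single term shared by all groups, could not fit a deviation present in untreated cells alone. It gave 5, 5, 6, 0, 0, 0 and 2 called genes. Over all genes it raised calls between siEZH2 and mock in AI from 10 higher and 198 lower to 19 and 352. There quantile normalization gave 4 and 7 and rescaling without mitochondrially encoded genes 1 and 58. Of 1012 alternatives for 20 named genes, 910 were called or not called as before, 85 lost the call and 16 gained it. Changes that were not called could differ in sign among the 910, as the IL11 interaction did (-0.46 to 0.50). TLN2 after siEZH2 turned to 0.10 with quantile normalization (limma adjusted p = 0.693). Depth in transfected libraries limits every value below 0.5 RPKM.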
